A study of Ogataea parapolymorpha with 8 samples.

Results

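The transcripts of a mutant of the yeast Ogataea parapolymorpha in batch culture were compared with those of the wild type from chemostats labelled aerobic. The members are the 4 libraries that the labels put in these groups, 2 per group, of 8 libraries in the series, and all 5428 genes of the deposited count table entered the comparison. The wild type is strain CBS11895, grown in chemostats (pH 6, diluted at 0.1 per h) on SM urea medium with 7.5 g/L glucose, ergosterol at 10 mg/L, Tween 80 at 84 mg/L and pluronic acid as antifoam. The mutant is strain IMX2167, whose genotype is labelled as a deletion of gut2 and of ndi and nde genes, grown as an aerobic batch at pH 6 on SM medium with 7.5 g/L glucose. The other 4 libraries are the wild type in chemostats labelled micro-aerobic (SM urea medium, 20 g/L glucose, ergosterol at 10 mg/L, Tween 80 at 420 mg/L, pluronic acid, 0.1 per h, pH 6) and the same mutant in an aerobic chemostat (7.5 g/L glucose, 0.1 per h, pH 5), and their values are set beside the results where they bear on them. Strain, deletions, batch against chemostat, medium, sterol and Tween supplements and the experiment code in the library titles differ together between the groups compared, so their effects cannot be told apart here.

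Ogataea parapolymorpha is a methylotrophic yeast that tolerates heat. Unlike Saccharomyces cerevisiae, it has a proton-pumping NADH dehydrogenase (complex I) in its mitochondria beside the single-protein, non-pumping NADH dehydrogenases encoded by NDE and NDI genes. GUT2 codes for a mitochondrial glycerol-3-phosphate dehydrogenase that passes electrons from cytosolic NADH to the respiratory chain by way of the glycerol-3-phosphate shuttle. Cells in a batch grow on excess substrate at the rate the strain allows, whereas the dilution rate sets growth in a chemostat, where a scarce nutrient limits it. Gene roles given below are those known in Saccharomyces cerevisiae, and genes are called by the symbol of their nearest homolog there, which for families of paralogs does not settle the member.

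The libraries labelled aerobic held 6104949 and 6749184 counts in genes and the batch libraries 8731655 and 11126081. Levels are in CPM, counts relative to library sizes that were scaled by TMM, and 3 counts were worth 0.262 to 0.572 CPM in single libraries. Replicates of the batch differed less (chi-square per degree of freedom 5.13) than those labelled aerobic (24.5), both above the value of 1 that sampling noise gives. The labels name 2 biological replicates per group and nothing further on how they were grown, so the variation between replicates may be technical. The p-values rest on a spread estimated over all 8 libraries. In the groups not compared here, chi-square per degree of freedom was 38.1 (mutant chemostat) and 6.72 (labelled micro-aerobic). Levels are given in library 1 and library 2 of a group (n = 2), and changes as log2 of batch over labelled aerobic ± SE. "Rose", "fell", "higher" and "lower" are used of changes that passed the quasi-likelihood test of edgeR at 0.05 after Benjamini-Hochberg adjustment over 5265 genes.

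The wild-type libraries labelled aerobic stood apart from the other 6 in most genes that are known in Saccharomyces cerevisiae to be more abundant when oxygen is short, against their label. ERG11 (lanosterol demethylase), an oxygen-using step of sterol synthesis, stood at 11161 and 12406 CPM in them, 432 and 388 in the batch, and at means of 292 in the pair labelled micro-aerobic and 246 in the mutant chemostat. HEM13, the oxygen-using coproporphyrinogen oxidase of heme synthesis, stood at 1202 and 1095 CPM, 128 and 138 in the batch, and at means of 58.8 and 86.5 in the other 2 groups in the same order. In both genes the libraries labelled aerobic were the highest of the 8. Of 13 such markers 11 had their highest group mean in the libraries labelled aerobic, and the exceptions were ANB1, highest in the batch, and AAC3, which was lowest in the libraries labelled aerobic (1072 and 877 CPM). Summed over the 13 markers, the level was 35145 and 35612 CPM in the libraries labelled aerobic, 10467 and 10510 in the batch, 11448 and 11498 in those labelled micro-aerobic, and 9889 and 8854 in the mutant chemostat. Abundant members such as ERG11 weigh most in this sum, which also includes AAC3, whose order ran the other way. The directions below rest on the labels as given, and the values of the batch against the libraries labelled micro-aerobic stand beside the main ones. Both sets of values share the batch libraries.

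GUT2 and NDE1, the targeted genes that were matched by symbol, were low in the batch but were not at 0. No ndi gene and no further nde gene was matched, so levels of those are not given. GUT2 (OPAR_001648, chromosome 3, 740390 to 742327, plus strand, 1 exon) stood at 393 and 381 CPM in the libraries labelled aerobic and at 111 and 94.8 in the batch. It fell by 1.91 ± 0.13 (adjusted p = 6.9e-08), and its mean in the mutant chemostat was 28.6. NDE1 (OPAR_004935, chromosome 7, 732835 to 734477, plus strand), which codes for an external NADH dehydrogenase, went from 66.4 and 72.1 CPM to 5.34 and 4.55, with a mean of 0.511 in the mutant chemostat. It fell by 3.81 ± 0.21 (adjusted p = 5.9e-09), so the groups did not overlap in either gene. The labels do not say how much of each gene was removed, and reads outside a deleted stretch would still be counted.

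**Figure D1:**
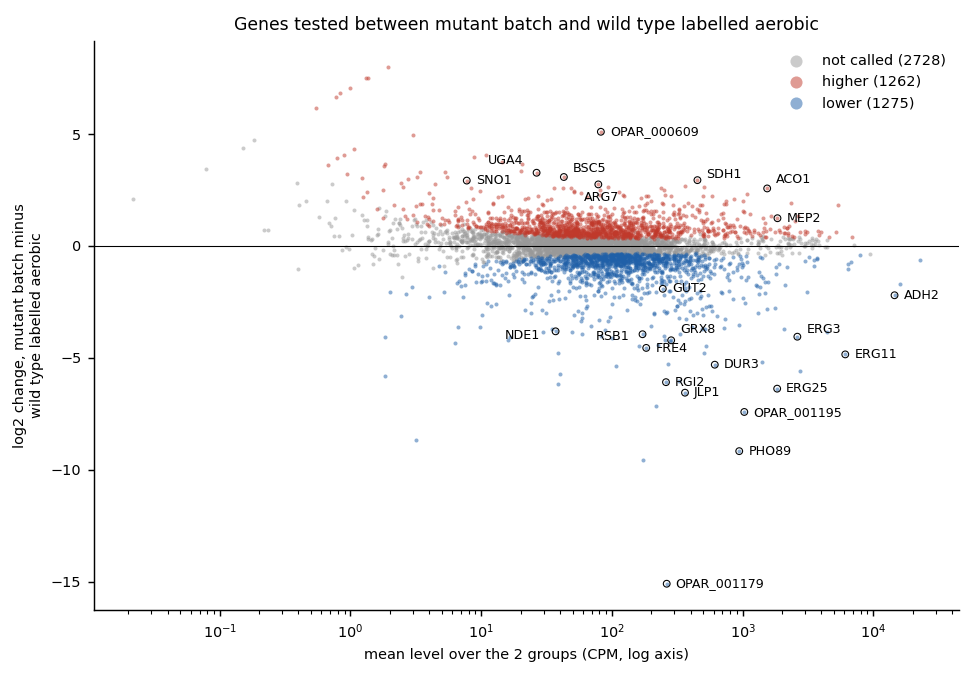
Log2 change of each of the 5265 genes tested (y axis, mutant batch minus wild type labelled aerobic) against the mean level of the 2 groups (x axis, CPM, log scale). Red points rose (1262 genes), blue points fell (1275) and grey points did not pass the test; circled genes carry names, and falls reach further from 0 than rises. The value of OPAR_001179 has no count in the batch and depends on the prior count of the fit.

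In the batch, most measured genes of the TCA cycle, the pentose phosphate pathway, complex III, amino acid synthesis and the mitochondrial ribosome rose. Most measured genes of iron and copper uptake fell, and so did 16 of 27 genes of sterol synthesis (13 under upper quartile scaling). The single genes PHO89 (phosphate uptake), DUR3 (urea uptake), JLP1 (sulfonate use) and GPH1 (glycogen breakdown) fell as well. The falls were the larger changes. SDH1, the flavoprotein subunit of succinate dehydrogenase, rose from 108 and 99.6 CPM to 793 and 802 (2.94 ± 0.15, adjusted p = 2.6e-09), whereas PHO89, a sodium-phosphate cotransporter, fell from 1755 and 2005 CPM to 3.64 and 2.97 (-9.16 ± 0.25, adjusted p = 1.1e-11). In PHO89 all 8 libraries of the series spread widely, with means of 231 in the pair labelled micro-aerobic and 0.541 in the mutant chemostat.

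Of 5265 genes tested 2537 changed, or 48.2%. They divided into 1262 that rose (24.0%) and 1275 that fell (24.2%), with a median change over all genes of 0.04. Counts of list members below are to be read against these shares. Under upper quartile scaling the division was 1729 higher and 978 lower, with the median of all genes shifted by 0.16, so small changes of 1 direction are read against that shift. At least 4-fold changes were fewer among rises (77 genes, 1.46%) than among falls (162 genes, 3.08%), and at least 16-fold changes numbered 12 and 36. Of those 36 falls 27 had neither a name nor a homolog in Saccharomyces cerevisiae, as did 37.3% of all genes tested. Without batch library 2 the test called 1664 genes, 819 higher and 845 lower. The batch against the libraries labelled micro-aerobic gave 1169 higher (22.2%) and 1139 lower (21.6%).

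**Figure D2:**
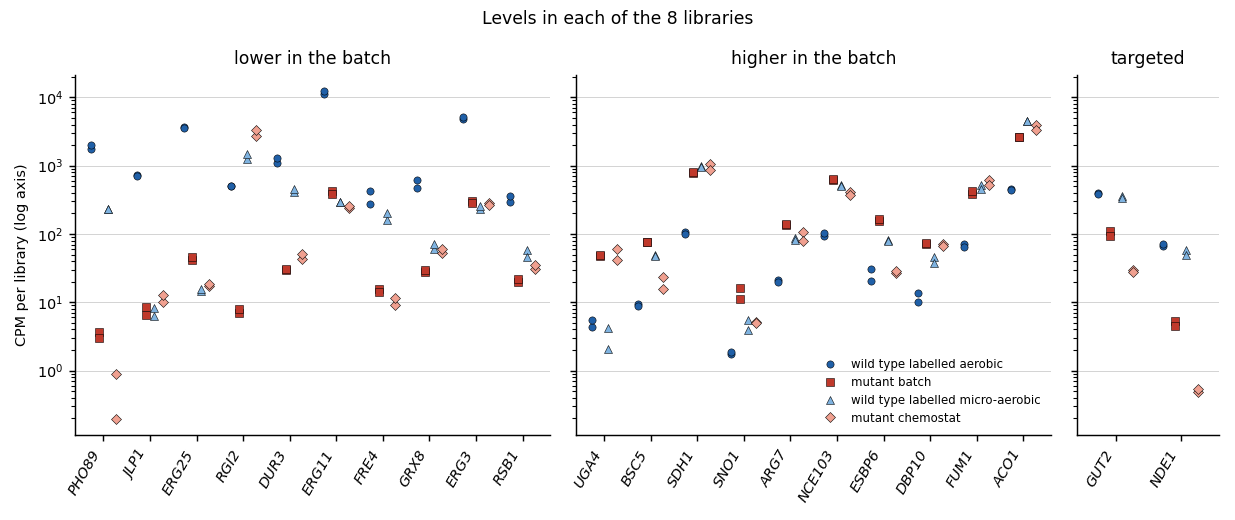
CPM in each of the 8 libraries (log axis) for the 10 falls and 10 rises with the largest change among genes with a symbol. The 2 targeted genes matched by symbol are shown as well. Each group has 2 points per gene. The batch squares and the circles of the wild type labelled aerobic do not overlap in any gene shown. For the rises and falls this was a condition of their choice. ERG11, ERG25, ERG3 and JLP1 are high in the circles alone.

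Among the largest named rises outside the TCA cycle, UGA4, a permease for gamma-aminobutyrate, went from 4.39 and 5.52 CPM to 47.1 and 49.2 (3.27 ± 0.28). BSC5, of no known function, went from 9.34 and 8.84 to 76.0 and 77.3 (3.08 ± 0.22). NCE103, the carbonic anhydrase that supplies bicarbonate to carboxylases, went from 94.4 and 103 to 622 and 634 (2.67 ± 0.14). These 3 genes were tightly grouped within each pair of libraries. ESBP6, similar to monocarboxylate permeases, rose by 2.62 ± 0.18, and SNO1, a gene of vitamin B6 synthesis, by 2.92 ± 0.36 from the low level of 1.72 and 1.89 CPM. Between the batch and the libraries labelled micro-aerobic, UGA4 differed by 3.95 ± 0.30 and BSC5 by 0.66 ± 0.19, whereas NCE103 did not pass (0.28 ± 0.13, adjusted p = 0.0840). The mean of UGA4 in the mutant chemostat was 51.0, close to its batch level.

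Among the falls not described with a pathway below, RSB1, which moves sphingoid bases out of the cell, went from 289 and 355 CPM to 20.1 and 21.8 (-3.94 ± 0.17). GRX8, a glutaredoxin, went from 606 and 473 to 28.0 and 30.1 (-4.21 ± 0.17). Both genes were also lower than in the libraries labelled micro-aerobic, by smaller amounts (-1.32 ± 0.17 and -1.18 ± 0.16). RGI2, a gene linked to respiratory growth, fell from 510 and 511 to 6.93 and 8.05 (-6.08 ± 0.20), while its means were 1363 in the pair labelled micro-aerobic and 3010 in the mutant chemostat. RGI2 overlaps another gene, and without a strand setting in the counting the reads of the pair cannot be told apart.

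Sterol synthesis turns acetyl-CoA into ergosterol, and several of its late steps use molecular oxygen. Of 27 measured genes 16 fell and 1, IDI1 (isopentenyl diphosphate isomerase), rose, with a median change of -0.56. Under upper quartile scaling 13 fell and 1 rose (median -0.40). The call of IDI1, named after its value was seen, was lost without either batch library or library 1 labelled aerobic. The falls were largest in the oxygen-using steps. ERG25 (OPAR_004641), the sterol C-4 methyl oxidase, stood at 3677 and 3585 CPM in the libraries labelled aerobic and 42.1 and 45.8 in the batch (-6.37 ± 0.16, adjusted p = 1.1e-11). A second gene of that name, ERG25_1 (OPAR_002868), fell far less, from 121 and 118 CPM to 81.9 and 81.2 (-0.55 ± 0.13), and was the more abundant of the pair in the batch. ERG11 fell by 4.84 ± 0.16, and ERG3, the C-5 desaturase, fell from 4756 and 5134 to a mean of 298 (-4.05 ± 0.15). ERG1, the squalene epoxidase, fell from 991 and 995 to 154 and 156 (-2.68 ± 0.16), and NCP1, the reductase that feeds electrons to ERG11, fell from 882 and 915 to 200 and 191 (-2.20 ± 0.13). Ergosterol was supplied to the wild type and is not named for the batch medium, and its part in these values was not tested.

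Relative to the libraries labelled micro-aerobic, the same steps ran the other way or were close to level. ERG25 was higher in the batch by 1.55 ± 0.16 and ERG1 by 1.35 ± 0.16, and ERG11 by 0.49 ± 0.14. ERG3 differed by 0.29 ± 0.14 (adjusted p = 0.110). In that comparison 9 sterol genes rose and 2 fell (median 0.18).

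A list of 13 genes whose transcripts mark oxygen shortage in Saccharomyces cerevisiae, which shares 7 of them with the sterol list, held 10 falls and 2 rises (median -2.13). The genes that rose carry the names ANB1 (0.64 ± 0.22, a call lost without either batch library or library 2 labelled aerobic) and AAC3 (1.94 ± 0.15), which stand for the closest homologs of a translation factor and of an ADP/ATP carrier and were picked out after their values were seen. OLE1, the fatty acid desaturase, fell from 4801 and 5108 CPM to 1231 and 1186 (-2.04 ± 0.14), and SCS7, which hydroxylates sphingolipid fatty acids, from 1359 and 1483 to 276 and 272 (-2.37 ± 0.15). OLE1 was lower than in the libraries labelled micro-aerobic as well (-1.57 ± 0.14), whereas SCS7 did not pass there (0.28 ± 0.15, adjusted p = 0.145). Over the 13 genes that comparison gave 6 rises and 2 falls (median 0.29).

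Of 9 genes of heme synthesis 4 rose and 5 fell (median -0.34), or 4 and 3 under upper quartile scaling, with 3 falls also without either batch library or library 1 labelled aerobic. HEM13 fell by 3.11 ± 0.14, HEM14 (protoporphyrinogen oxidase) fell from 220 and 209 CPM to 63.4 and 71.4 (-1.67 ± 0.15), and HEM1, the first enzyme of the pathway, was 2.84-fold lower. HEM4 (uroporphyrinogen synthase) rose from 18.9 and 13.7 to 44.9 and 47.8 (1.52 ± 0.19), and HMX1, the heme oxygenase that breaks heme down, rose by 1.38 ± 0.16. The other rises were HEM2 and HEM3 and the other falls HEM12 and HEM15, picked out after their values were seen. In fatty acid synthesis 3 of 11 genes rose and 3 fell. These shares, 27.3% each, were close to the 24.0% and 24.2% of all genes tested. In this list ACC1 (acetyl-CoA carboxylase) rose by 1.26 ± 0.18 and the elongase gene ELO3 by 1.74 ± 0.18. The median of that list, -0.02, took the other sign under upper quartile scaling (0.14).

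The TCA cycle oxidises acetyl-CoA in mitochondria and yields the NADH and succinate that feed the respiratory chain. Of 20 genes of pyruvate dehydrogenase and the TCA cycle 19 rose and none fell, with a median change of 1.63. Succinate dehydrogenase and the steps around it led. SDH2, its iron-sulfur subunit, rose from 89.2 and 62.5 CPM to 413 and 445 (2.50 ± 0.17), FUM1 (fumarase) from 71.5 and 64.1 to 390 and 432 (2.60 ± 0.16), and ACO1 (aconitase) from 449 and 441 to 2656 and 2619 (2.57 ± 0.15). CIT1, the citrate synthase, rose from 176 and 177 to 793 and 842 (2.21 ± 0.15). LPD1, the dihydrolipoamide dehydrogenase shared by several complexes, was the member that did not pass (0.03).

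For the members named that rose, the libraries labelled aerobic were the lowest of the 4 groups. ACO1 had means of 4485 in the pair labelled micro-aerobic and 3656 in the mutant chemostat, and CIT1 had means of 7249 and 1211. SDH1 and FUM1 did not pass between the batch and the libraries labelled micro-aerobic (-0.26 ± 0.14 in both, adjusted p = 0.132 and 0.151). In that comparison 9 genes of the list rose and 4 fell (median 0.04).

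**Figure D3:**
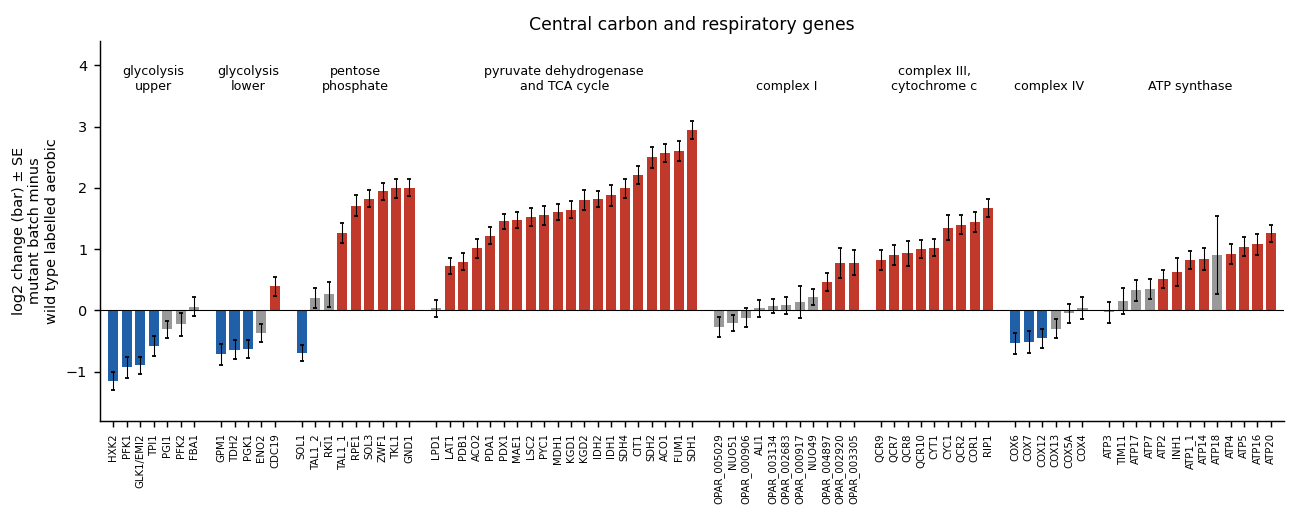
Log2 change (bars) ± SE (whiskers) for single genes of glycolysis, the pentose phosphate pathway, the TCA cycle and the respiratory chain, mutant batch minus wild type labelled aerobic. Red bars rose, blue bars fell and grey bars did not pass; TCA cycle and complex III bars point up, as do pentose phosphate bars other than SOL1, and glycolysis and complex IV bars mostly point down.

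The respiratory complexes differed among themselves. All 9 measured genes of complex III and cytochrome c rose (median 1.02). RIP1, the Rieske iron-sulfur protein, went from 242 and 184 CPM to 666 and 690 (1.67 ± 0.15), COR1 rose by 1.44 ± 0.16, and CYC1 (cytochrome c) went from 1163 and 704 to 2499 and 2246 (1.35 ± 0.20). The libraries labelled aerobic differed more from each other in CYC1 than the batch libraries did, and the groups still did not overlap. In the batch against the pair labelled micro-aerobic, 8 of these genes rose (median 0.68), CYC1 by 1.54 ± 0.20.

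In ATP synthase 8 of 13 genes rose and none fell (median 0.82), led by ATP20 (1.26 ± 0.14), which overlaps another gene, and by ATP16 (1.08 ± 0.17, from 148 and 104 CPM to 249 and 280). In complex I, for which the labels name no deletion, 3 of 11 genes rose and none fell (median 0.08). Those 27.3% were close to the 24.0% of all genes tested that rose. These were OPAR_003305 (0.78 ± 0.20), OPAR_002920 (0.77 ± 0.25) and OPAR_004897 (0.46 ± 0.15, from 109 and 107 to 151 and 147), each of which lost its call without batch library 1. With the libraries labelled micro-aerobic as reference, 8 complex I genes fell and none rose (median -1.04). There 2 ATP synthase genes rose and 1 fell (median 0.03), and 2 complex IV genes rose and none fell (median 0.32). Against the libraries labelled aerobic, complex IV went the other way from complex III. COX6 (-0.54 ± 0.17), COX7 (-0.51 ± 0.18) and COX12 (-0.46 ± 0.15) were lower among 6 genes (median -0.38). Under upper quartile scaling none of these 3 passed, and none did without either batch library or without library 1 labelled aerobic, and COX7 stood at 742 and 463 CPM in the libraries labelled aerobic.

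The carriers and dehydrogenases that move cytosolic NADH into mitochondria or reoxidise it gave 5 rises and 5 falls among 18 genes (median -0.06, or 0.10 under upper quartile scaling). These shares, 27.8% each, were close to those of all genes tested, of which 24.0% rose and 24.2% fell. Beside NDE1 and GUT2, the targeted genes described above, the falls were ADH3, a mitochondrial alcohol dehydrogenase (97.6 and 98.6 CPM to 29.3 and 29.0, -1.75 ± 0.15), AAT2 and CYB2. The rises included MDH1, the mitochondrial malate dehydrogenase (237 and 219 to 675 and 716, 1.61 ± 0.13), and DLD2 (1.46 ± 0.16), and the carriers AGC1, OAC1 and CTP1. AAT2, CYB2 and the 3 carriers were picked out after their values were seen. In glycerol metabolism 1 of 7 genes rose and 1 fell, GUT2 being the fall and DAK1, the dihydroxyacetone kinase, the rise (0.84 ± 0.26), a call lost without batch library 2 or library 2 labelled aerobic. Under upper quartile scaling 3 glycerol genes rose and 1 fell.

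Glycolysis held more falls than rises. In the upper part of the pathway 4 of 7 genes fell and none rose (median -0.58), and in the lower part 3 of 5 fell and 1 rose (median -0.63). HXK2 (hexokinase) fell from 2102 and 1610 CPM to 816 and 855 (-1.15 ± 0.15), PFK1 (phosphofructokinase) by 0.93 ± 0.17, and GLK1/EMI2 (glucokinase) from 4780 and 4356 to 2409 and 2487 (-0.90 ± 0.14). TDH2, the glyceraldehyde-3-phosphate dehydrogenase gene, fell from 27388 and 28116 to 17324 and 18252 (-0.64 ± 0.15), with an adjusted p of 0.0502 without batch library 1. CDC19, the pyruvate kinase, was the rise (0.39 ± 0.15, adjusted p = 0.0421), a call that was lost without either batch library or without library 1 labelled aerobic.

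The order of the 3 groups differed from that of the TCA cycle genes. Set against the pair labelled micro-aerobic, all 7 upper glycolysis genes rose in the batch (median 1.70) and 4 of 5 lower ones (median 1.85), HXK2 by 2.23 ± 0.16 and CDC19 by 2.31 ± 0.16. HXK2 had means of 178 in the pair labelled micro-aerobic and 189 in the mutant chemostat, so the batch stood between these and the libraries labelled aerobic.

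The pentose phosphate pathway supplies NADPH and precursors of nucleotides and aromatic amino acids. Of 9 genes 6 rose and 1 fell (median 1.71). ZWF1 (glucose-6-phosphate dehydrogenase) rose from 97.1 and 103 CPM to 379 and 391 (1.94 ± 0.14), GND1 (6-phosphogluconate dehydrogenase) from 396 and 413 to 1562 and 1665, or 3.99-fold, and TKL1 (transketolase) by 1.99 ± 0.15, though TKL1 overlaps another gene. SOL3 rose by 1.82 ± 0.14 and RPE1 by 1.71 ± 0.17. SOL1, named after its value was seen, was the fall (-0.70 ± 0.13). Relative to the libraries labelled micro-aerobic, 6 genes also rose and 2 fell (median 0.65).

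At the pyruvate branch ADH2, among the most abundant transcripts of the libraries labelled aerobic, fell from 26295 and 21440 CPM to 5043 and 5321 (-2.20 ± 0.18, adjusted p = 2.9e-07). Its means were 32816 in the pair labelled micro-aerobic and 13699 in the mutant chemostat, so the batch was the lowest of the 4 groups. Of 10 genes of this branch 2 rose and 4 fell (median -0.06), or 3 and 3 under upper quartile scaling with a median of 0.10. ADH7 fell by 0.98 ± 0.21, and PDC5 (pyruvate decarboxylase), picked out after its value was seen, by 0.54 ± 0.18. ACS1, an acetyl-CoA synthetase, went from 252 and 285 to 458 and 425 (0.71 ± 0.15), far under its mean of 11948 in the libraries labelled micro-aerobic.

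Sugar transporter genes changed in both directions. Of 29 genes 6 rose and 11 fell (median -0.36). The largest rise, OPAR_000609, carries sugar transporter domains and no name, and went from 4.20 and 5.05 CPM to 158 and 162 (5.10 ± 0.20, adjusted p = 2.3e-10). The largest fall, OPAR_000592, went from 17.4 and 24.1 to 2.73 and 3.76 (-2.66 ± 0.38). OPAR_000609 had means of 302 in the pair labelled micro-aerobic and 2232 in the mutant chemostat, so the libraries labelled aerobic were the lowest. In the batch against the pair labelled micro-aerobic, 3 transporter genes rose and 20 fell (median -1.40).

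Among genes of methanol use, which glucose represses in this yeast, OPAR_002900 and FDH1 were low in both groups compared. OPAR_002900, with the domains of alcohol oxidase, stood at 106 and 125 CPM in the libraries labelled aerobic and 49.4 and 51.7 in the batch (-1.19 ± 0.16), against means of 6708 and 6405 in the libraries labelled micro-aerobic and the mutant chemostat. FDH1 (formate dehydrogenase) went from 59.3 and 68.2 to 33.3 and 37.5 (-0.85 ± 0.18), against means of 4706 and 4005. OPAR_000696, with transketolase domains, fell from 48.8 and 48.3 to 22.0 and 23.9 (-1.08 ± 0.22), against means of 1409 and 791 in the libraries labelled micro-aerobic and the mutant chemostat. OPAR_000368, also with transketolase domains, went the other way at a low level. It had no count in the libraries labelled aerobic and 79 over the batch libraries (3.86 and 3.94 CPM), at least 15.1-fold higher with 3 counts over the group as floor. In all, 4 of 9 methanol genes rose and 3 fell (median -0.11, or 0.05 under upper quartile scaling).

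In fatty acid oxidation 2 of 13 genes rose and 3 fell (median -0.11, or 0.05 under upper quartile scaling). The shares of 15.4% and 23.1% stand beside 24.0% and 24.2% of all genes tested. POX1 (acyl-CoA oxidase) fell from 450 and 520 CPM to 102 and 96.6 (-2.29 ± 0.15), and SPS19 fell by 1.15 ± 0.14. YAT1 (carnitine acetyltransferase) rose from a mean of 15.9 to 80.7 and 92.6 (2.45 ± 0.24), and CTA1 (peroxisomal catalase) rose by 0.85 ± 0.13. Among 16 peroxins, which build peroxisomes, 8 fell and 1 rose (median -0.32), while 4 fell without either batch library and 5 without library 2 labelled aerobic. PEX4, which overlaps another gene, fell by 1.09 ± 0.18 and PEX30 by 0.84 ± 0.13, and the rise was PEX19, named after its value was seen, whose call was lost without either batch library or library 1 labelled aerobic. In the glyoxylate cycle and gluconeogenesis PCK1 rose (0.76 ± 0.19) and IDP2 fell (-1.24 ± 0.21), the other 4 of 6 genes did not pass, and the median of 0.00 was 0.16 under upper quartile scaling. With the libraries labelled micro-aerobic as reference, 12 of 13 fatty acid oxidation genes and all 6 of these fell, with medians of -1.92 and -4.0.

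Of 62 genes of amino acid synthesis 48 rose and 1 fell (median 0.83), the fall being ARG3 (-0.64 ± 0.14), named after its value was seen. ARG7, an acetyltransferase of arginine synthesis, rose from 21.2 and 19.7 CPM to 135 and 140 (2.75 ± 0.18, adjusted p = 2.8e-08). LYS4 (homoaconitase of lysine synthesis) rose from 33.8 and 37.7 to 178 and 200 (2.40 ± 0.15), ASN1 (asparagine synthetase) from 214 and 196 to 930 and 982 (2.22 ± 0.14), and HIS5 (histidinol-phosphate aminotransferase) from 77.6 and 76.9 to 293 and 289 (1.91 ± 0.12). LEU1 (isopropylmalate isomerase) rose by 2.12 ± 0.13 and overlaps another gene. Set against the pair labelled micro-aerobic, 41 genes of this list rose and 3 fell (median 0.82), HIS5 by 1.96 ± 0.12 and ARG7 by 0.70 ± 0.16.

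**Figure D4:**
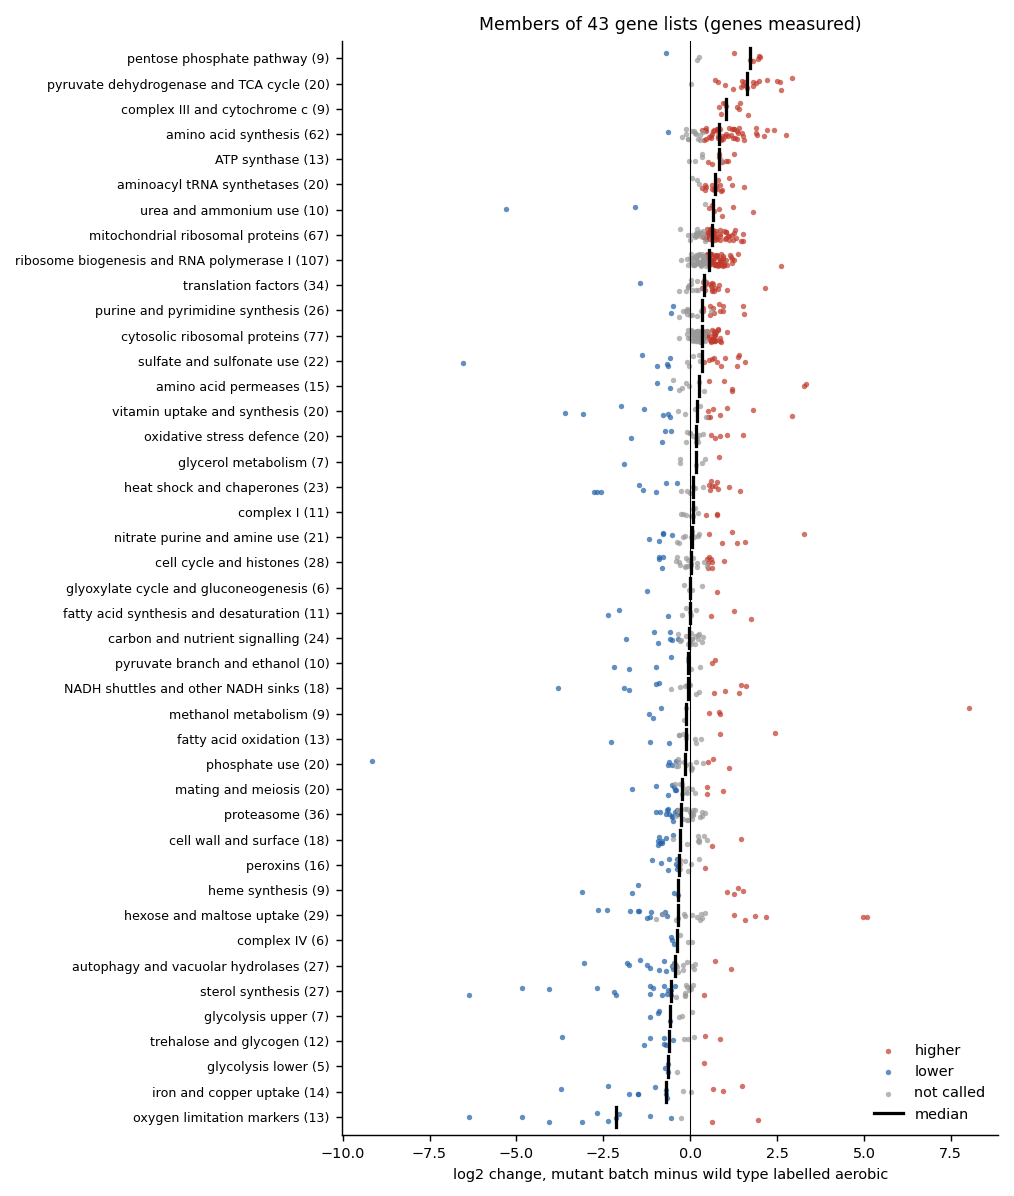
Log2 change of each measured member of 43 gene lists, mutant batch minus wild type labelled aerobic, with lists ordered by their median (black line) and the number of measured genes in brackets. Red members rose, blue fell and grey did not pass; the pentose phosphate pathway (median 1.71) stands at the top and the oxygen limitation markers (-2.13) at the bottom.

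The labels name urea in the medium of the wild type and no nitrogen source for that of the mutant. DUR3, the urea and polyamine permease, fell from 1082 and 1306 CPM to 29.7 and 31.0 (-5.30 ± 0.17, adjusted p = 3.8e-11), and DUR1,2, which codes for urea amidolyase, fell from 364 and 452 to 129 and 144 (-1.58 ± 0.18). In both genes the groups lay well apart. MEP2, a high-affinity ammonium permease, rose from 1092 and 1102 to 2610 and 2584 (1.24 ± 0.15), MEP3 rose by 0.91 ± 0.16, and GLT1 (glutamate synthase) rose from 202 and 216 to 696 and 764 (1.81 ± 0.17). MEP2 had a mean of 67.2 in the libraries labelled micro-aerobic, which also grew on urea medium, and of 1070 in the mutant chemostat. Of the 10 genes of urea and ammonium use 7 rose and 2 fell (median 0.66).

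Other nitrogen genes moved in both directions. Among permeases for amino acids 6 of 15 rose and 2 fell (median 0.25), LYP1 by 3.32 ± 0.49 from 7 counts over the libraries labelled aerobic (ratio 10.1, counting interval 4.78 to 25.7). The falls were MUP3 and AGP2, picked out after their values were seen. DAL4, the allantoin permease, rose from 81.0 and 90.7 CPM to 259 and 256 (1.58 ± 0.14), PUT4 (proline permease) by 1.19 ± 0.15 and CAR1 (arginase) by 1.35 ± 0.27. In the list of nitrate, purine and amine use to which DAL4 and CAR1 belong 6 of 21 rose and 5 fell (median 0.04), or 8 and 4 under upper quartile scaling. The shares of 28.6% and 23.8% were close to the 24.0% and 24.2% of all genes tested. The falls of this list were AMD2 (-1.18 ± 0.40, a call lost without either batch library or library 1 labelled aerobic) and, picked out after their values were seen, YNR1, PUT2, OPT2 and PUT1.

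Purine and pyrimidine synthesis held 12 rises and 2 falls among 26 genes (median 0.35), or 15 and none under upper quartile scaling, which removes the falls of URA3 and FUR1, picked out after their values were seen. Neither fall passed without either batch library or library 1 labelled aerobic. ADE2, which acts in purine synthesis, rose from 106 and 115 CPM to 333 and 312 (1.55 ± 0.14). A gene named ADE3 (OPAR_004763) rose from 223 and 256 to 663 and 704 (1.51 ± 0.15), and GUA1 (GMP synthase) rose by 0.86 ± 0.14. Relative to the libraries labelled micro-aerobic, 17 genes rose and 1 fell (median 0.68).

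More genes of protein synthesis rose than fell, mostly by small amounts per gene. Of 107 genes of ribosome biogenesis and RNA polymerase I 62 rose and none fell (median 0.53). DBP10, an RNA helicase of large-subunit assembly, rose from 9.92 and 13.7 CPM to 70.1 and 74.8 (2.60 ± 0.19), ERB1 from 24.4 and 30.0 to 71.0 and 70.8 (1.38 ± 0.22), and DHR2 by 1.26 ± 0.22. Of 77 cytosolic ribosomal proteins 31 rose and none fell (median 0.35), or 51 and none under upper quartile scaling, 15 without batch library 1 and 65 without library 1 labelled aerobic. RPL6A_2 rose from 439 and 323 to 804 and 782 (1.06 ± 0.15), and RPP1A, a stalk protein, from 779 and 556 to 1274 and 1178 (0.88 ± 0.16). In RPL6A_2 and RPP1A library 1 labelled aerobic was higher than library 2, and the batch libraries were above both. In RPS20 and RPS18A the groups overlapped. In the batch against the pair labelled micro-aerobic, 67 ribosomal protein genes rose and 1 fell (median 0.78), and 71 biogenesis genes rose and 1 fell (median 0.52).

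Of 67 mitochondrial ribosomal proteins 48 rose and none fell (median 0.62), MRPL1 from 19.3 and 21.3 CPM to 52.7 and 63.5 (1.52 ± 0.23) and MNP1 from 146 and 108 to 353 and 369 (1.51 ± 0.15). Of 20 aminoacyl-tRNA synthetases 17 rose and none fell (median 0.70), TYS1 (tyrosine) from 104 and 111 to 306 and 320 (1.55 ± 0.13) and GRS1 (glycine) by 1.21 ± 0.14. Among 34 translation factors 19 rose and 1 fell (median 0.39), and 11, 9 and 12 rose without batch library 1, batch library 2 or library 2 labelled aerobic. GCD14, in the list by its symbol and not itself a translation factor, led (2.16 ± 0.24). TIF35, a subunit of initiation factor 3, was the fall (904 and 744 to 299 and 310, -1.43 ± 0.14). Both genes overlap other genes, so some of the reads may belong to the neighbour.

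Beside PHO89, phosphate genes held smaller changes. Of 20 genes 3 rose and 5 fell (median -0.16), or 4 and 3 under upper quartile scaling with a median that rounds to 0, so that its sign is not settled. PHO8, a vacuolar alkaline phosphatase, rose from 20.2 and 20.8 CPM to 41.5 and 46.9 (1.11 ± 0.18), and the polyphosphate synthase subunits VTC1, which overlaps another gene, and VTC3 fell by 0.63 ± 0.15 and 0.60 ± 0.14. The other rises were PHO2 (0.65 ± 0.14) and PHO81, and the other falls SYG1 and PPN2, of which PHO81, SYG1 and PPN2 were picked out after their values were seen, and 3 or 2 genes fell without batch library 1 or 2. PHO89 lies near a chromosome end (OPAR_003569, chromosome 6, 2241 to 3947, minus strand). Its 66 counts over the batch libraries stand against 21906 over those labelled aerobic.

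In sulfur use 11 of 22 genes rose and 6 fell (median 0.33). JLP1, a dioxygenase that releases sulfite from sulfonates such as taurine, fell from 723 and 710 CPM to 6.48 and 8.66 (-6.55 ± 0.20, adjusted p = 3.4e-11), and its means were 7.26 in the pair labelled micro-aerobic and 11.4 in the mutant chemostat. SUL2, a sulfate permease, fell from 1059 and 1155 to 423 and 420 (-1.39 ± 0.14), and it was higher than in the libraries labelled micro-aerobic (1.44 ± 0.14). The rises included HOM3 (1.41 ± 0.18) and MET13 (1.38 ± 0.16), which act in methionine synthesis, and the cysteine transporter gene YCT1 (1.58 ± 0.28). With the libraries labelled micro-aerobic as reference, 16 sulfur genes rose and none fell (median 0.66), and JLP1 did not pass (0.07 ± 0.23, adjusted p = 0.823).

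Of 14 genes of iron and copper uptake 9 fell and 3 rose (median -0.70). FRE8, a reductase-like gene, fell from 66.2 and 63.4 CPM to 4.55 and 5.25 (-3.71 ± 0.21), SIT1, a siderophore transporter, from 265 and 214 to 44.0 and 48.5 (-2.37 ± 0.15), and FET3 (ferroxidase) from 2724 and 3760 to 960 and 957 (-1.76 ± 0.17). FTR1, its permease partner, fell by 1.51 ± 0.17, and FRE4, a ferric reductase outside the list, fell from 274 and 427 to 15.6 and 14.3 (-4.55 ± 0.23). The rises were CCC1 (1.49), which stores iron in the vacuole, FRE7 and ISU1, picked out after their values were seen. FET3 did not pass against the libraries labelled micro-aerobic, where 3 genes rose and 3 fell (median -0.07), whereas FRE4 fell there too (-3.61 ± 0.22).

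Vitamin genes were divided, with 8 of 20 higher and 7 lower (median 0.21). THI5, of thiamine precursor synthesis, rose from 2232 and 2471 CPM to 8000 and 8605 (1.82 ± 0.25) and overlaps another gene. VHT1, the biotin transporter, fell from 84.5 and 100 to 12.7 and 9.27 (-3.08 ± 0.25), and FEN2, the pantothenate transporter, from 9.53 and 14.8 to 1.36 and 0.700 (-3.60 ± 0.45). BNA1, of NAD synthesis, fell from 483 and 402 to 119 and 103, or 3.99-fold, and uses oxygen in its reaction. VHT1 had means of 0.479 in the pair labelled micro-aerobic and 1.14 in the mutant chemostat, so the batch stood between the groups.

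Of 12 trehalose and glycogen genes 7 fell and 2 rose (median -0.60). GPH1 (glycogen phosphorylase) fell from 3659 and 4096 CPM to 321 and 281 (-3.69 ± 0.17, adjusted p = 1.4e-09), TPS3 fell by 1.34 ± 0.13 and TPS1, the trehalose-phosphate synthase, from 1173 and 1143 to 548 and 492 (-1.15 ± 0.17). The rises were ATH1 (trehalase, 0.85 ± 0.22, a call lost without library 1 labelled aerobic) and TPS2, the latter named after its value was seen and not called without either batch library or library 1 labelled aerobic. GPH1 was lower than in the libraries labelled micro-aerobic as well (-2.22 ± 0.16), where 7 genes fell and 1 rose (median -0.60).

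Of 27 genes of autophagy and vacuolar hydrolases 13 fell and 2 rose (median -0.43), the rises being LAP3 and ATG12, named after their values were seen, with the call of ATG12 lost without either batch library or library 1 labelled aerobic. ATG1, the kinase that starts autophagy, fell from 667 and 835 CPM to 90.1 and 90.6 (-3.06 ± 0.15), and ATG8, which coats the autophagosome, from 86.2 and 87.7 to 26.5 and 22.8 (-1.82 ± 0.19). The vacuolar proteases PRB1 and PEP4 fell by 1.77 ± 0.13 and 1.44 ± 0.13, and both overlap other genes. Set against the pair labelled micro-aerobic, 20 of these genes fell and 1 rose (median -0.69). Of 36 proteasome genes 15 fell and none rose (median -0.27), whereas 8 fell and 4 rose under upper quartile scaling. Without batch library 1, batch library 2 or library 1 labelled aerobic the proteasome falls numbered 7, 4 and 6. The largest were RPN6 (-0.98 ± 0.20, from 603 and 486 to 290 and 262) and PRE7 (-0.86 ± 0.15).

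Of 23 heat shock and chaperone genes 9 rose and 8 fell (median 0.09). HSP12 fell from 3750 and 2438 CPM to 497 and 405 (-2.78 ± 0.22), HSP26 from 571 and 527 to 68.4 and 103 (-2.68 ± 0.27) and SSA3 from 623 and 607 to 68.3 and 138 (-2.57 ± 0.26). The disaggregase gene HSP104 fell by 1.46 ± 0.15. HSP60, the mitochondrial chaperonin, rose from 349 and 386 to 958 and 1029 (1.44 ± 0.14). SSA3 differed by more between the batch libraries than HSP60 did. Relative to the libraries labelled micro-aerobic, 8 genes of this list rose and 5 fell (median 0.18). HSP26 was higher there (1.04 ± 0.27) and SSA3 lower (-2.26 ± 0.25).

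In oxidative stress defence 5 of 20 genes rose and 4 fell (median 0.16), or 8 and 3 under upper quartile scaling. PRX1_1, a peroxiredoxin, fell from 25965 and 22783 CPM to 7853 and 7145 (-1.70 ± 0.16), and OYE2 fell by 0.82 ± 0.18. SOD2, the mitochondrial superoxide dismutase, rose from 152 and 156 to 456 and 430 (1.52 ± 0.13) and overlaps another gene, and GRX5, which acts in iron-sulfur cluster assembly, rose by 1.07 ± 0.13. Beside CTA1 the other rises were SOD1 and CCP1 and the other falls DOT5 and HYR1, picked out after their values were seen. Set against the pair labelled micro-aerobic, 6 genes of this list rose and 6 fell (median -0.06). PRX1_1 was higher there (1.08 ± 0.16) and SOD2 lower (-0.95 ± 0.13).

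The remaining lists held smaller changes. Of 18 cell wall genes 2 rose and 8 fell (median -0.29), or 5 and 7 under upper quartile scaling, with GAS5 rising by 1.45 ± 0.18 and BGL2 falling by 0.94 ± 0.17, and SCW10 as the other rise, named after its value was seen. Of 28 cell cycle and histone genes 8 rose and 4 fell (median 0.02), among them PCL1, a cyclin (0.98 ± 0.22), and CDC28, the cyclin-dependent kinase (320 and 258 CPM to 150 and 156, -0.91 ± 0.14). The shares of 28.6% that rose and 14.3% that fell stand beside 24.0% and 24.2% of all genes tested. Of 24 genes of carbon and nutrient signalling 7 fell and none rose (median -0.03), a share of falls (29.2%) close to that of all genes tested (24.2%), whereas 5 fell and 4 rose under upper quartile scaling with a median of 0.12, and 4 fell without batch library 1. HAP3, a subunit of the activator of respiratory genes, fell from 44.1 and 40.9 to 12.4 and 11.4 (-1.84 ± 0.21), and BCY1, the regulatory subunit of protein kinase A, by 1.03 ± 0.16. Of 20 mating and meiosis genes 3 rose and 7 fell (median -0.24), or 3 and 4 under upper quartile scaling, and 3 or 4 fell without a batch library, with STE14 (0.94 ± 0.16) and, named after their values were seen, STE7 and STE20 (both lost without either batch library or library 1 labelled aerobic) as the rises, and GPA1 among the falls (-0.99 ± 0.17).

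Genes with no name and no homolog held many of the largest changes. OPAR_001195, with a monooxygenase domain, fell from 2085 and 2009 CPM to 13.6 and 10.5 (-7.41 ± 0.20, adjusted p = 1.1e-11), and OPAR_002173, with no domain given, from 480 and 377 to 3.52 and 2.62 (-7.14 ± 0.26). Both had means in the other 2 groups close to the batch, at 11.3 and 6.74 for OPAR_001195 and at 4.55 and 6.49 for OPAR_002173. OPAR_002094, with a solute symporter domain, fell by 6.18 ± 0.37 and overlaps another gene. The rises after OPAR_000609 were OPAR_000060, with the domain of aminotransferases (0.763 and 1.58 to 17.3 and 23.8, 4.08 ± 0.43), OPAR_000925 (3.98 ± 0.46), and OPAR_000334 and OPAR_001005, both with FAD-binding oxidoreductase domains (3.77 ± 0.34 and 3.67 ± 0.29). OPAR_000334 was high in the batch alone, with means of 0.479 and 1.93 in the libraries labelled micro-aerobic and the mutant chemostat against 25.8 and 28.4 in the batch.

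Among genes at 10 CPM or more in 1 group, 1 gene had no count in the other. OPAR_001179, with domains of pyridine nucleotide-disulphide oxidoreductases, stood at 524 and 527 CPM in the libraries labelled aerobic and at 0 in both batch libraries. With 3 counts over the group as floor it was at least 3545-fold lower in the batch. Its mean was 0 in the pair labelled micro-aerobic and 0.0442 in the mutant chemostat, so the transcript was counted in the libraries labelled aerobic and hardly elsewhere. It lies near OPAR_001177, with the domain of taurine dioxygenases, the family of JLP1, which had 9 counts over the batch libraries and 3961 over those labelled aerobic (ratio 769, counting interval 405 to 1683). Between them OPAR_001178, with the domain of major facilitator transporters, had 0 and 71 counts, at least 41.3-fold lower. The 3 genes span 952273 to 957364 on the plus strand of chromosome 2. Of their neighbours, OPAR_001176 was not tested, OPAR_001175 on the same side rose by 1.72 ± 0.25, and OPAR_001180 and OPAR_001181 on the other side did not pass (-0.08 and -0.33). OPAR_001182 beyond these rose by 0.48 ± 0.17.

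**Figure D5:**
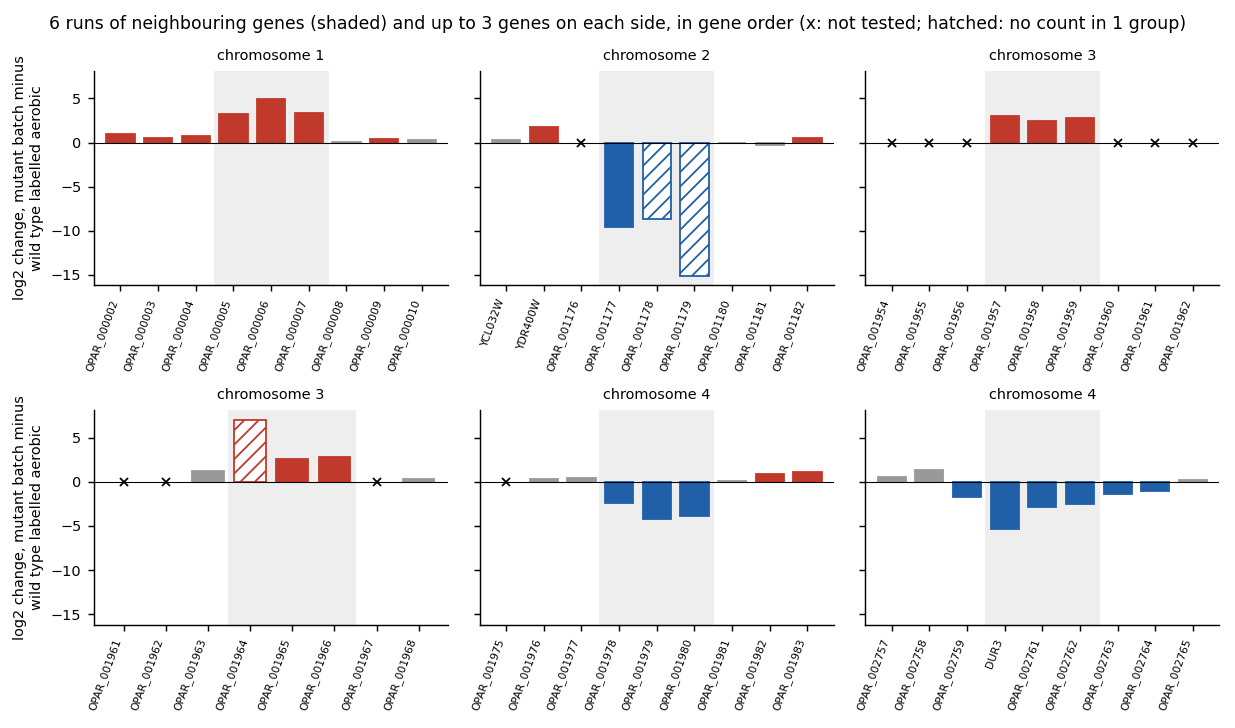
Log2 change (bars, mutant batch minus wild type labelled aerobic) in 6 runs of at least 3 neighbouring genes that changed at least 4-fold in 1 direction (grey shading), with up to 3 genes on each side in gene order. Red bars rose, blue bars fell and grey bars did not pass; a cross is a gene not tested, and hatched bars have no count in 1 group, so that their height depends on the prior count of the fit.

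In all, 6 runs of at least 3 neighbouring genes changed at least 4-fold in the same direction. On chromosome 4, DUR3 (1285014 to 1287178, minus strand) was followed by OPAR_002761, with a transporter domain (436 and 451 CPM to 61.9 and 55.8, -2.91 ± 0.17), and OPAR_002762, with the domain of proline racemases (19.1 and 18.9 to 3.52 and 2.97, -2.55 ± 0.34). The genes flanking this run, OPAR_002759, OPAR_002763 and OPAR_002764, were lower as well, by 1.68, 1.36 and 1.07. OPAR_002761 was also lower than in the libraries labelled micro-aerobic (-2.62 ± 0.16), whereas OPAR_002762 did not pass there (-0.70 ± 0.38, adjusted p = 0.156).

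Near the start of chromosome 4 a sugar transporter gene, OPAR_001978 (60.6 and 72.4 CPM to 13.3 and 12.2, -2.38 ± 0.20), lay beside OPAR_001979, with an FAD-binding oxidoreductase domain (31.7 and 29.0 to 1.93 and 1.40, -4.19 ± 0.30), and OPAR_001980, with the zinc cluster domain of fungal transcription factors (113 and 107 to a mean of 7.25, -3.93 ± 0.19). These genes span 17141 to 21819. The 3 runs of rises lay at lower levels. Near the start of chromosome 1, from 10026 to 14018, lay OPAR_000005, with the domain of phytanoyl-CoA dioxygenases (ratio 10.0, interval 2.57 to 86.0, a call lost without batch library 2 or library 1 labelled aerobic), OPAR_000006, with sugar transporter domains (ratio 33.8, interval 9.14 to 282), and OPAR_000007, with the domain of aldo-keto reductases (2.10 and 4.89 CPM to 40.5 and 33.8, 3.36 ± 0.29).

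Both other runs lay on chromosome 3. OPAR_001957, OPAR_001958 and OPAR_001959 (1255607 to 1262213, minus strand) stood at 1.36 to 9.21 CPM in the batch, with the call of OPAR_001958 lost without batch library 2 or either library labelled aerobic, and OPAR_001964, OPAR_001965 and OPAR_001966 (1269772 to 1273396, minus strand) at 1.84 to 15.2. OPAR_001959, with a domain of fungal transcription factors, rose by 2.78 ± 0.49, and OPAR_001965, with the domain of aldo-keto reductases, rose by 2.61 ± 0.55, although the libraries labelled aerobic differed in it (0.191 and 4.26 CPM). OPAR_001964 had no count in those libraries and 40 over the batch, at least 7.63-fold higher. OPAR_000006, OPAR_000007 and OPAR_001966 were higher still in the mutant chemostat, with means of 12.2 for OPAR_000006, 95.6 for OPAR_000007 and 62.8 for OPAR_001966.

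Ranked by counts per length within a group, the libraries labelled aerobic were led by PRX1_1 with 32029 CPM per kb, TDH2 with 24408, OPAR_001148 with 21773, OPAR_001129 with 20243 and ADH2 with 20158. In the batch the leaders were TDH2 with 15645 CPM per kb, OPAR_000172 with 11295, OPAR_001148 with 10642, PRX1_1 with 9854 and OPI3 (a phospholipid methyltransferase) with 9813. ADH2 went from rank 5 to rank 41, and CYC1 came up from rank 77 to rank 8. OPAR_001129, a gene of 264 bases on chromosome 2 (884119 to 884382, plus strand) with no name and no domain, went from rank 4 to rank 373, from 6049 and 4639 CPM to 115 and 112 (-5.56 ± 0.21, adjusted p = 1.6e-10). Its means in the other groups were 66.6 and 109, so it too was high in the libraries labelled aerobic alone. OPAR_000172 rose by 0.61 ± 0.21, a call lost without either batch library or library 2 labelled aerobic, and the ribosomal protein genes RPS20 and RPL25 among the first 10 of the batch did not pass (0.13 ± 0.19 and 0.39 ± 0.18, adjusted p = 0.605 and 0.0819), though both passed without library 1 labelled aerobic.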

How the data were processed

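RNA from cells frozen in liquid nitrogen was extracted with acidic phenol-chloroform and sequenced as stranded, poly(A)-enriched libraries, per the labels' protocols. The authors deposited whole-number read counts per gene, made, per the submitters' processing notes, with featureCounts 1.6.0 among other tools (edgeR 3.28.1, Bowtie 1.2.1.1, SAMtools 1.3.1). The sources used here give no alignment settings and no strand setting for the counting, so antisense and overlapping genes (303) cannot be told apart. Coordinates are those of the deposited annotation of strain DL-1, and 4 columns of the count table that belong to other libraries were not used.

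Counts of all 8 libraries were fitted with edgeR 4.0.16 (R 4.3.3, filterByExpr, TMM scaling, quasi-likelihood F test of group means, adjusted p below 0.05 over 5265 genes), with 4 residual degrees of freedom and a biological coefficient of variation of 0.118. The SE is the absolute log2 change divided by the square root of F. DESeq2 1.42.0 was an alternative, and the test was checked on simulated counts. Ratios for genes with few counts carry exact 95% intervals that cover counting error only, against a floor of 3 counts over a group.

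Named genes are the targeted genes matched by symbol and the 10 largest named rises and falls at 10 CPM or more in a group. The 5 largest without a symbol were added under the same rule. These rises and falls were picked among changed genes whose values did not overlap between the groups compared. Also named are up to 5 changed members of each list, genes absent from a group, runs of neighbours and the 10 highest per length. The members, lists and symbols were chosen with earlier results of these data known, and 10 display names were added after values were seen. List members marked in the text as named or picked out after their values were seen come in addition and fall outside these rules. Symbols were assigned by hand from homolog names and domains. Promoter motifs and sequences were not analysed here.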

Additional observations from a re-analysis of the deposited data

How the results depend on the processing

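The counts of 1262 rises and 1275 falls stayed within 1.5 times under RLE scaling (1254 and 1280), upper quartile scaling (1729 and 978), no filter on low counts (1278 and 1272), a fit of the 4 libraries alone (1246 and 1321), DESeq2 (1238 and 1267) and without overlapping genes (1192 and 1194). Leaving out each library in turn gave 1664 to 2364 changed genes, 819 to 1173 rises and 845 to 1191 falls, the lowest of each without batch library 2, and no call turned direction. Of the 2537 calls, 1794 and 1663 were kept in the same direction without batch library 1 or 2, and 2038 and 2098 without library 1 or 2 labelled aerobic. Among the named genes 18 and 22 lost their call without batch library 1 or 2, 13 and 10 without library 1 or 2 labelled aerobic, 7 under upper quartile scaling, 5 in the fit of 4 libraries and 3 with DESeq2, and the cause was not tested. The medians of 8 gene lists changed sign with the scaling. No paired analysis was possible because the labels give the libraries compared no shared replicate number, and the numbers 1 and 2 used here only follow accession order. Batch and chemostat libraries of the mutant share a title code in pairs, which the fit did not model, and the fit of 4 libraries leaves those chemostats out. At these depths a gene at 0 in a library may still be present below 0.262 to 0.572 CPM.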
